A study of Homo sapiens with 23 samples.

Results

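Clones 7, 8 and 9 are the 3 vemurafenib-resistant clones of the human melanoma line WM989 A6-G3, and they were compared here together with the untreated line. The comparison used 12 of the 23 libraries of the series, 3 of untreated cells and 3 of each clone, chosen by the clone number and drug in the sample labels. A change was counted when it was present in each of the 3 clones. The line was derived from WM989, a BRAF-mutant melanoma, by repeated passage through single cells, and each clone was expanded from 1 colony that grew out under drug. All libraries carry the label wild type for genotype. Clones 7, 8 and 9 grew with 1 µM vemurafenib, an inhibitor of mutant BRAF, in the medium, and the untreated cells grew without drug. Vemurafenib in the medium and the state of the resistant clones therefore cannot be told apart. Clones 10, 11, 12 and 13 grew out under, and were kept in, 2.5 nM trametinib, an inhibitor of MEK, together with 250 nM of the BRAF inhibitor dabrafenib. They are given for reference only, with 11 libraries (2 of clone 11 and 3 of each of the others). Their libraries also entered the estimate of spread per gene that all 8 groups shared. The SE and p of clones 7, 8 and 9 therefore also carry the spread within clones 10 to 13.

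Mutant BRAF drives the kinases MEK and ERK without a growth factor, and ERK in turn induces its own inhibitors, such as the Sprouty and DUSP proteins. In melanoma the transcription factors SOX10 and MITF maintain the melanocyte program of pigment enzymes and melanosome proteins. Cells that survive BRAF inhibition are known to leave that program for a mesenchymal one, with high AXL and EGFR, collagens and fibronectin.

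Poly(A) RNA was measured as TPM, a share of all transcripts that is corrected for transcript length. Levels below are TPM after scaling between libraries, and differences are log2 fold changes of scaled TPM + 1, a scale that understates changes of genes at low levels. The deposited values keep no sequencing depth, so the spread between libraries was the only measure of error. Between 18671 and 23412 genes had a value above 0 in the 12 libraries, with the fewest in clone 7 replicate 1. Mitochondrially encoded transcripts took 20.6% to 21.2% of the deposited TPM in untreated cells, against 10.2% to 12.4% (clone 7), 6.74% to 12.2% (clone 8) and 10.6% to 11.3% (clone 9). Clone 8 replicate 3 stood apart from its partners, with a scaling factor of 0.747 and the share of 6.74%. Without this library, the 1091 shared rises given below became 1076 and the 890 shared falls 877.

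The markers of the labelled cell type were tested first. The summed level of 9 melanocytic markers ran from 12690 to 13161 TPM in untreated cells, against 386 to 415 TPM (clone 7), 73.2 to 86.4 TPM (clone 8) and 73.4 to 82.4 TPM (clone 9), and 8 of the 9 fell in all 3 clones. PAX3, a transcription factor of the neural crest, was the exception, at 16.7 TPM in untreated cells and 11.4, 11.6 and 12.6 TPM in clones 7, 8 and 9. TYR and DCT were under 1 TPM in clones 8 and 9, TYRP1 in clone 8 and SOX10 in clone 9, so defining markers of the labelled lineage were at or near 0 there. Summed fibroblast markers ran from 60.1 to 69.5 TPM in untreated cells and from 3072 to 5612 TPM in the 9 clone libraries, with 8 of the 10 tested markers higher in all 3 clones. THY1, a surface antigen of fibroblasts, was under 1 TPM in every group. Markers of keratinocytes and endothelium summed to at most 22.6 and 6.32 TPM in these clones. The immune sum was 169 to 170 TPM in untreated cells and reached 757 TPM in clone 7, mostly CD68, a lysosomal protein, while CD3E, CD3D, MS4A1, CD14 and TYROBP were under 1 TPM in each of these groups. CSF1R, a receptor of macrophages, was the 1 of 4 tested immune markers that rose in all 3 clones (0.398 TPM in untreated cells and 2.6, 6.05 and 2.48 TPM in clones 7, 8 and 9), and PTPRC, a surface protein of leukocytes, was called higher in clone 8 alone (1.24 TPM in untreated cells and 1.08, 4.12 and 0.894 TPM in clones 7, 8 and 9). Neuronal and glial markers summed to 172 to 179 TPM in untreated cells, against 181 to 209 TPM (clone 7), 133 to 134 TPM (clone 8) and 163 to 176 TPM (clone 9). Of the 5 tested, SNAP25, a protein of synaptic vesicle release, rose in all 3 clones (0.394 TPM in untreated cells and 35.3, 47 and 57.3 TPM in clones 7, 8 and 9), while SOX2, SYT1, STMN2 and ELAVL4 were under 1 TPM in each group. The part of these cell type markers in the other results was not tested. In bulk RNA, a change in the number of cells of a type and a change in the RNA per cell cannot be told apart.

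Clones 7, 8 and 9 shared 1091 genes that were higher than in untreated cells and 890 that were lower, of 15657 genes tested (6.97% and 5.68%). For a gene to be called, limma's p after Benjamini-Hochberg adjustment had to be under 0.05 and the fold change 1 log2 unit or more, in each clone separately. Single clones had more calls: clone 7 had 1733 genes higher and 1329 lower (11.1% and 8.49%), clone 8 had 1727 and 1456 (11% and 9.3%), and clone 9 had 1800 and 1287 (11.5% and 8.22%). The 3 comparisons share the untreated libraries. The mean of the 3 clones was called higher for 1662 genes and lower for 1287 (10.6% and 8.22%), so 571 rises and 397 falls of the mean were missing a call in at least 1 clone. As for every mean of the 3 clones given below, its SE and p rest on the spread between libraries within groups. They leave out the spread between clones. With the clone as the unit, which leaves fewer samples, the mean was called higher for 796 genes and lower for 810. Untreated and clone libraries did not overlap for 1089 of the shared rises and 884 of the shared falls, against 42.4% of all genes tested. The shared changes were called on these same libraries, so this mostly follows from the call rule and is no separate support. The median log2 fold change of the mean was 2.17 for shared rises and -1.83 for shared falls, and the median over all genes tested was -0.001.

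COL1A1, the main chain of type I collagen, had the largest change in the least changed of the clones. COL1A1 was at 5.14, 8.8 and 5.92 TPM in the untreated libraries, against 3059, 2557 and 3570 (clone 7), 4935, 4073 and 2682 (clone 8) and 3929, 4326 and 3738 (clone 9). The change was of similar size in each clone (log2 fold changes 8.67, 8.98 and 9.06; mean 8.90, SE 0.2, limma adjusted p 1.88e-17), and all clone libraries lay above the untreated ones. Also at the head of the rises were IGFBP7, CCL2, SPOCK1, CXCL12, BASP1, ITGA11, COL5A1, C1R, FAP, NNMT, ID3, THBS1 and COL6A2. Matrix proteins and their receptors (SPOCK1, ITGA11, COL5A1, THBS1, COL6A2) and secreted signals (CCL2, CXCL12) are among them. The log2 fold change of the mean for these genes ran from 6.19 for ID3 to 7.86 for CXCL12. The 15 genes at the head of the falls were FXYD3, ERBB3, RLBP1, S100B, DCT, CST1, RAB38, STK32A, GJB1, CHL1, PMEL, TMEM163, SOX10, TYR and IGSF11, from -7.38 for FXYD3 to -5.23 for IGSF11.

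**Figure D1:**
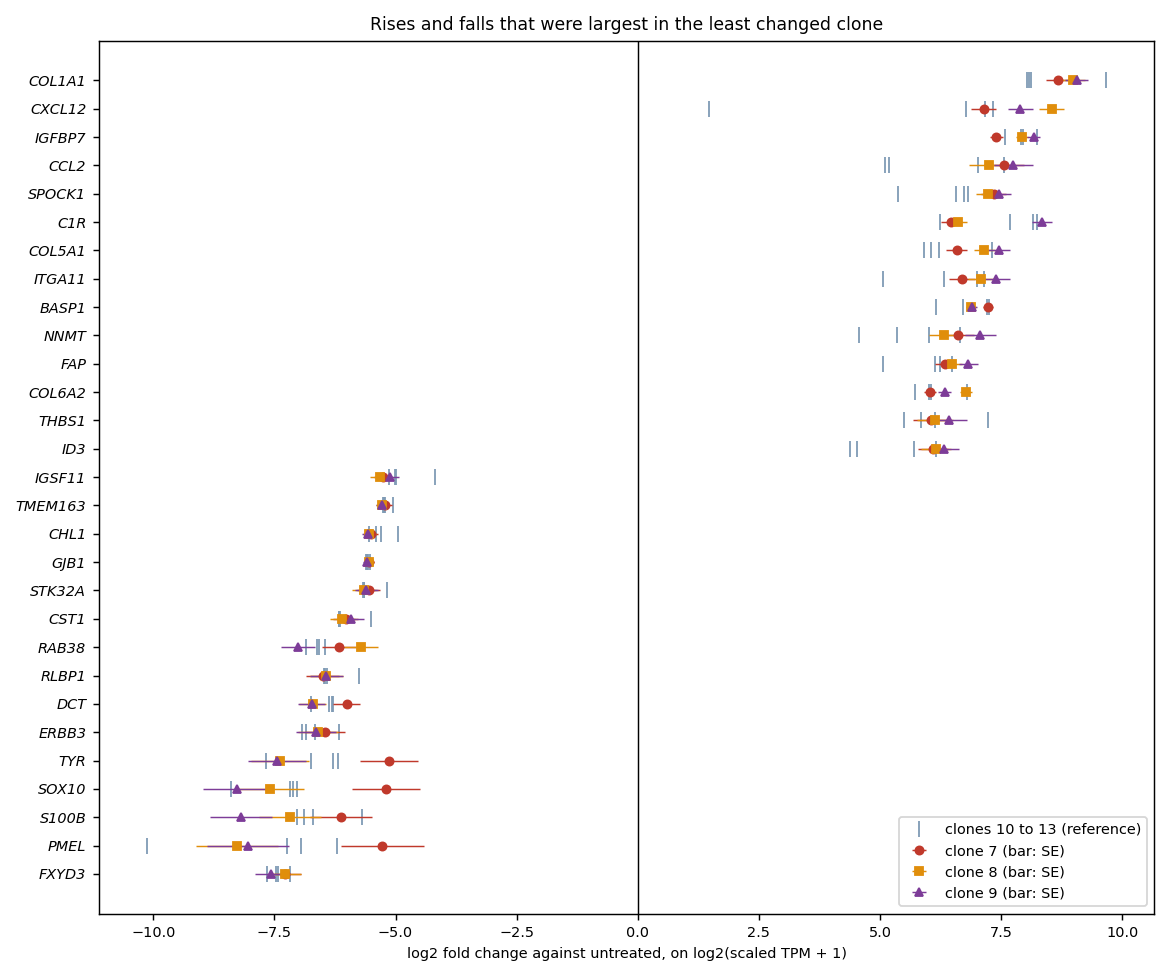
Log2 fold change against untreated cells (x axis, on log2 of scaled TPM + 1) of 14 of the 15 rises and the 15 falls that were largest in the least changed of clones 7, 8 and 9. Symbols are the clones with their SE and ticks are clones 10 to 13; the 3 clones lie close together for COL1A1 and GJB1, and clone 7 lies nearer 0 than clones 8 and 9 for SOX10, TYR and PMEL.

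Pigment and melanosome genes fell almost as a block. Of 21 tested members 17 fell in all 3 clones and 0 rose, with a median log2 fold change of -2.45 for the mean (clone medians -1.85, -3.07 and -2.85). PMEL, which forms the fibrils of melanosomes, was at 10040, 9744 and 9801 TPM in the untreated libraries, against 259, 267 and 241 (clone 7), 31.9, 34.7 and 26.9 (clone 8) and 38.4, 36.9 and 33.2 (clone 9). Clone 7 kept the most of it, and no clone library came near the untreated level (mean log2 change -7.20, SE 0.69, adjusted p 4.2e-08). MLANA, a melanosome protein used as a diagnostic antigen, stood at 1330, 1219 and 1169 TPM in the untreated libraries, against 44.9, 60.6 and 51.9 (clone 7), 6, 7.13 and 7.5 (clone 8) and 3.39, 2.69 and 2.27 (clone 9). TYR, the enzyme of the first step of melanin synthesis, was at 263, 270 and 276 TPM in the untreated libraries, against 6.4, 7.09 and 6.73 (clone 7), 0.91, 0.455 and 0.538 (clone 8) and 0.59, 0.649 and 0.439 (clone 9). For both, clone 7 held more than clones 8 and 9, and the F test among the 3 clones was passed (adjusted p 0.00514 for MLANA and 0.00808 for TYR). DCT, another melanin enzyme, and RAB38, which carries melanin enzymes to the melanosome, fell, with log2 fold changes of -6.48 and -6.30. GPNMB, a melanosome and lysosome protein, was called lower in clone 8 alone, at 682 TPM in untreated cells and 502, 288 and 497 TPM in clones 7, 8 and 9.

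The transcription factors of the lineage fell in part. SOX10 was at 467, 465 and 473 TPM in the untreated libraries, against 11.2, 12.7 and 11.4 (clone 7), 1.67, 1.58 and 1.11 (clone 8) and 0.546, 0.662 and 0.33 (clone 9). The level in clone 7 exceeded that in clone 9 by 3.08 on the log2 scale, and all 9 clone libraries were far below the untreated ones (mean log2 change -7.02, SE 0.57, adjusted p 3.5e-09). MITF, its target and the regulator of pigment genes, fell less, from 111, 127 and 132 TPM in the untreated libraries to 55.4, 44.6 and 54.6 TPM (clone 7), 29.1, 25.8 and 19.9 (clone 8) and 22.8, 18.1 and 22.3 (clone 9) (mean log2 change -2.00, SE 0.14, adjusted p 2.99e-10; adjusted p 0.0854 with the clone as the unit). Of 18 tested factors of melanocytes and neural crest, 9 fell and 2 rose in all 3 clones. These were 50% and 11.1%, beside 5.68% and 6.97% of all genes. RXRG, a retinoid receptor, IRF4, a melanocyte factor, and SOX5 and SOX6 fell, with log2 fold changes of -5.13, -3.23, -3.18 and -3.23. DLX2, a homeobox factor, and SOX9, a factor of cartilage and neural crest, were the members that rose. SOX9 was at 0.00836, 0.00376 and 0.0106 TPM in the untreated libraries, against 1.57, 1.78 and 2.34 (clone 7), 1.42, 1.35 and 0.973 (clone 8) and 1.71, 1.48 and 1.4 (clone 9), so it was nearly absent before and remained at a low level. Of 15 tested neural crest-like and Schwann cell genes, 8 fell and 0 rose in all 3 clones. NGFR, the nerve growth factor receptor that marks a neural crest-like melanoma state, was called in none of them, at 1.52 TPM in untreated cells and 2.45, 2.28 and 0.688 TPM in clones 7, 8 and 9, and its direction turned when clone 7 or clone 8 was left out of the mean.

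A set of genes fell to the same low level in each clone. RLBP1, a retinal carrier protein, was at 98.3, 88.1 and 87.9 TPM in the untreated libraries, against 0, 0.0649 and 0 (clone 7), 0.0871, 0.127 and 0.0114 (clone 8) and 0.102, 0.0806 and 0.0419 (clone 9). CHL1, a neural cell adhesion molecule, was at 42.5, 49 and 51.9 TPM in the untreated libraries, against 0, 0.0865 and 0.109 (clone 7), 0.0348, 0.0854 and 0.0125 (clone 8) and 0.0981, 0 and 0.00731 (clone 9). GJB1, a gap junction protein of Schwann cells, was at 50.9, 46.4 and 45.8 TPM in the untreated libraries, against 0.0791, 0.0195 and 0.0134 (clone 7), 0.102, 0 and 0.0133 (clone 8) and 0.0213, 0.0222 and 0 (clone 9). The 3 clones differed by at most 0.07 (RLBP1), 0.04 (CHL1) and 0.03 (GJB1) on the log2 scale, which near 0 TPM leaves little room for a difference. ERBB3, the receptor for neuregulins that is high in melanocytes, went from 211, 208 and 206 TPM in the untreated libraries to between 0.686 and 1.83 TPM in the clone libraries (mean log2 change -6.57, SE 0.33, adjusted p 3.09e-12).

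Promoters of the fallen pigment genes were read from RefSeq (GRCh38.p14) as 250 bases before to 50 after each gene start, for the E-box CATGTG that MITF binds, on both strands. Of 15 matched pigment genes that fell, 6 (40%) held it, beside 8.78% of 581 matched genes lower in all 3 clones, 5.81% of 775 matched genes higher in all 3, 7.01% of 10214 matched genes tested and 11.2% of all 27305 promoters of that table. For 3 of these genes a window of 100 bases is shown because it carries the motif next to the gene start; capitals mark it, and CACATG is the same motif read on the other strand. TYR lies at chr11:89177775-89177874 on the plus strand, TYRP1 at chr9:12693285-12693384 on the plus strand and TRPM1 at chr15:31161161-31161260 on the minus strand. TYRP1 and TRPM1 were chosen after their values were seen.
TYR: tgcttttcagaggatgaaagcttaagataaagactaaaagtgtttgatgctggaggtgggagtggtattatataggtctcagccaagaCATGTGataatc
TYRP1: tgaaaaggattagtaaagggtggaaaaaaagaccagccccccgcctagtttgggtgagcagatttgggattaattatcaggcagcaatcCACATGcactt
TRPM1: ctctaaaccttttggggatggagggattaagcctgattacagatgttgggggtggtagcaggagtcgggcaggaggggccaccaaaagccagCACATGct
These genes, whose products are 2 melanin enzymes and a channel of melanocytes, fell, with log2 fold changes of -6.65 (TYR), -2.88 (TYRP1) and -5.55 (TRPM1), and the motif match is a description of the letters only.

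**Figure D2:**
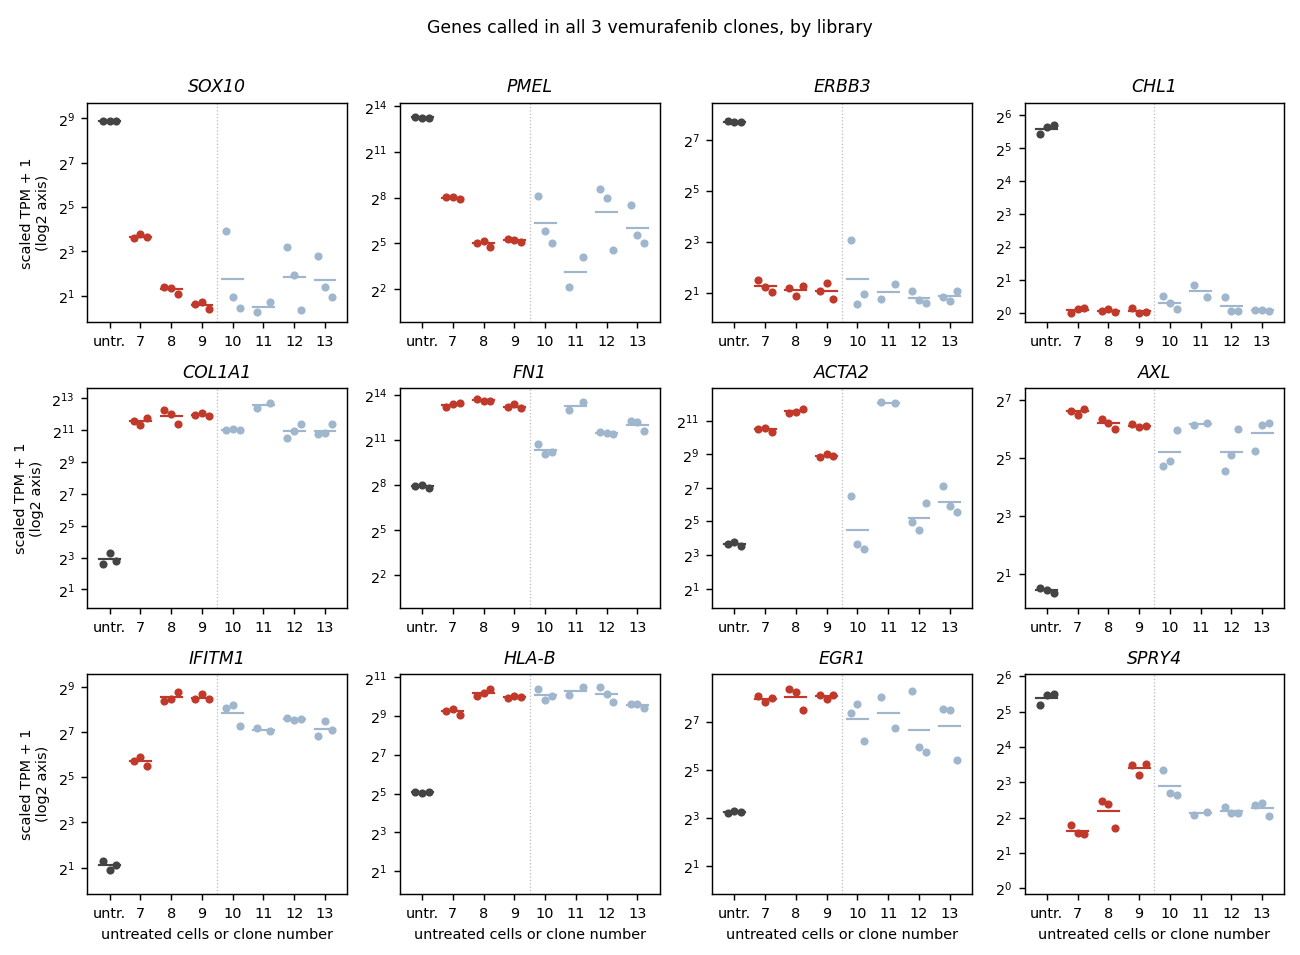
Scaled TPM + 1 (log2 axis) of 12 genes in every library of untreated cells (grey), clones 7, 8 and 9 (red) and, for reference, clones 10 to 13 (blue). Points are libraries and lines the mean of log values; the red points lie apart from the grey ones in each panel.

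Collagens and other matrix genes were among the largest rises. Of 21 tested collagen chains, 16 rose and 1 fell in all 3 clones (76.2% and 4.76%, beside 6.97% and 5.68% of all genes). The median log2 fold change of the mean was 4.53 (clone medians 3.51, 3.88 and 4.91). COL5A1 and COL5A2, chains of type V collagen, COL6A2 of type VI and COL4A2 of basement membranes rose by 7.06, 6.01, 6.38 and 6.02 (log2). COL9A3, a chain of cartilage collagen IX, was the member that fell (57.1 TPM in untreated cells and 3.58, 2.96 and 11.1 TPM in clones 7, 8 and 9). FN1, fibronectin, was the most abundant of the matrix genes named here. It was at 247, 251 and 223 TPM in the untreated libraries, against 9199, 10510 and 11160 (clone 7), 13720, 12080 and 12410 (clone 8) and 9311, 10540 and 8726 (clone 9). All 9 clone libraries exceeded the untreated ones, and clone 8 was highest (mean log2 change 5.48, SE 0.16, adjusted p 6.1e-16). Of 23 tested matricellular proteins and proteoglycans 14 rose and 0 fell in all 3 clones. IGFBP7, a secreted binding protein of insulin-like growth factors, was at 5.76, 7.34 and 5.32 TPM in the untreated libraries, against 1154, 1292 and 1153 (clone 7), 1554, 1713 and 1935 (clone 8) and 1977, 2143 and 1992 (clone 9). BGN, the proteoglycan biglycan, was higher in clone 9 than in clones 7 and 8, at 5.48 TPM in untreated cells and 403, 539 and 1798 TPM in clones 7, 8 and 9 (F test adjusted p 5.44e-10). Of 19 tested collagen-processing enzymes 9 rose and 0 fell, among them LOXL2, a lysyl oxidase that cross-links collagen (mean log2 change 5.95, SE 0.22, adjusted p 2.25e-14), PLOD2, a lysyl hydroxylase, and P4HA2, a prolyl hydroxylase.

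Of 24 tested matrix proteases and inhibitors, 11 rose and 2 fell in all 3 clones (45.8% and 8.33%, the latter near the 5.68% of all genes). PLAU, which encodes the protease urokinase, was one of the 2 that fell, at 6.64 TPM in untreated cells and 0.0478, 0.237 and 0.17 TPM in clones 7, 8 and 9 (mean log2 change -2.73, SE 0.11, adjusted p 5.82e-14). MMP1, a collagenase, rose in all 3 but to unequal levels, at 5.31, 4.88 and 4.48 TPM in the untreated libraries, against 520, 580 and 556 (clone 7), 28.7, 33.3 and 32.2 (clone 8) and 41, 41.8 and 43.6 (clone 9). Clone 7 held most of it, and the F test was passed (range 4.10 on the log2 scale, adjusted p 0.000168). Of 26 tested integrins and laminins 10 rose and 3 fell (38.5% and 11.5%, beside 6.97% and 5.68% of all genes). ITGA11 and ITGA5, collagen and fibronectin receptor subunits, rose by 7.06 and 4.90 (log2). ITGA6 and ITGA7, laminin receptor subunits, fell, with log2 fold changes of -3.51 and -3.18. Laminin receptors did not all fall, since ITGA3, another such subunit, rose in all 3 clones, as did LAMA5, a laminin chain. Among 17 adhesion molecules 4 rose, VCAM1, CDH13, CDH11 and ALCAM, and 4 fell, among them CEACAM1 and CDH19. The share was 23.5% each way, beside 6.97% higher and 5.68% lower of all genes.

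The contractile genes of smooth muscle and myofibroblasts rose in 17 of 21 tested members, with 1 lower in all 3 clones. The shares were 81% and 4.76%, beside 6.97% and 5.68% of all genes, and the median log2 fold change was 2.84. ACTA2, smooth muscle actin, was at 11.4, 12.7 and 10.6 TPM in the untreated libraries, against 1468, 1557 and 1301 (clone 7), 2796, 2959 and 3409 (clone 8) and 453, 516 and 476 (clone 9). Clone 8 was highest and clone 9 lowest of the 3, and even clone 9 stood above every untreated library (mean log2 change 6.68, SE 0.47, adjusted p 3.55e-10). MYLK, the kinase that starts contraction, TAGLN, an actin-binding protein, and TPM1, a tropomyosin, rose by 6.12, 5.75 and 5.65 (log2). TNS1, a focal adhesion protein, was the member that fell (66.7 TPM in untreated cells and 6.8, 11.5 and 5.52 TPM in clones 7, 8 and 9). Of 23 tested mesenchymal transcription factors 7 rose in all 3 and 1, NFATC2, fell (30.4% and 4.35%, beside 6.97% and 5.68% of all genes). FOXF1, a forkhead factor of mesenchyme, was at 0.128 TPM in untreated cells and 38.4, 39.1 and 126 TPM in clones 7, 8 and 9, and TWIST2, a factor of dermal fibroblasts, at 0.00452 TPM in untreated cells and 1.13, 10.7 and 8.58 TPM in clones 7, 8 and 9. Both were lowest in clone 7 and both passed the F test (adjusted p 2.39e-07 and 8.6e-07).

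Among receptor tyrosine kinases ERBB3 fell while AXL, PDGFRB and EGFR rose. Of 29 tested receptors, 7 rose and 2 fell in all 3 clones (24.1% and 6.9%, the latter near the 5.68% of all genes). AXL, a receptor long linked to drug-tolerant melanoma, was at 0.426, 0.376 and 0.288 TPM in the untreated libraries, against 98, 87.9 and 103 (clone 7), 80.4, 72.9 and 63.4 (clone 8) and 70.6, 66.2 and 67 (clone 9). All 9 clone libraries lay above the untreated ones and the 3 clones did not pass the F test (mean log2 change 5.85, SE 0.25, adjusted p 2.91e-13; F test adjusted p 0.415). EGFR, the epidermal growth factor receptor, was at 0.601, 0.425 and 0.492 TPM in the untreated libraries, against 15.2, 10.8 and 12.5 (clone 7), 18.2, 17.4 and 9.01 (clone 8) and 17.5, 13.2 and 19.5 (clone 9). It rose to a like level in each clone (mean log2 change 3.36, SE 0.18, adjusted p 8.54e-12). PDGFRB, a platelet-derived growth factor receptor, and NTRK3, a neurotrophin receptor, rose by 5.93 and 4.19 (log2). PDGFRA rose too, with 83.6 TPM in clone 9 against 7.56 and 5.59 TPM in clones 7 and 8. Ligands of such receptors rose in 10 of 26 tested members and fell in 0. VEGFC, a lymphatic growth factor, BDNF, a neurotrophin, and KITLG, the ligand of KIT, rose by 4.93, 4.19 and 3.65 (log2). NRG1, the ligand of the fallen ERBB3, rose as well, at 0.803 TPM in untreated cells and 72.8, 26.2 and 16.4 TPM in clones 7, 8 and 9. HGF, the ligand of MET, was called in clones 7 and 9 and not in clone 8, at 0.0433 TPM in untreated cells and 19.4, 1.08 and 56.8 TPM in clones 7, 8 and 9.

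ERK feedback genes fell in part. Of 20 tested members of the MAPK output list 7 fell and 3 rose in all 3 clones. These were 35% and 15%, beside 5.68% and 6.97% of all genes. DUSP5, a DUSP protein, and EGR1 were among those that rose. SPRY4, a Sprouty inhibitor of the pathway, was at 35.6, 43.5 and 43.9 TPM in the untreated libraries, against 2.46, 1.94 and 1.92 (clone 7), 4.53, 4.22 and 2.25 (clone 8) and 10.2, 8.27 and 10.5 (clone 9). Clone 9 kept more than clones 7 and 8 (mean log2 change -2.98, SE 0.16, adjusted p 1.01e-11, and 0.0677 with the clone as the unit; F test adjusted p 6.57e-06). ETV4 and ETV5, transcription factors induced by ERK, fell, with log2 fold changes of -3.83 and -2.73, as did DUSP4, a phosphatase of ERK (log2 fold change -2.79). DUSP6, the cytoplasmic ERK phosphatase, did not follow them. It was at 114, 126 and 133 TPM in the untreated libraries, against 333, 246 and 239 (clone 7), 265, 287 and 113 (clone 8) and 167, 117 and 194 (clone 9). The libraries within a clone were spread widely, those of clones 8 and 9 reached down into the range of the untreated ones, and the difference was not called (mean log2 change 0.72, SE 0.39, adjusted p 0.132). CCND1, cyclin D1, was called higher in clone 8 alone, at 132 TPM in untreated cells and 226, 327 and 218 TPM in clones 7, 8 and 9. BRAF itself was not called, at 12.5 TPM in untreated cells and 9.73, 8.97 and 9.82 TPM in clones 7, 8 and 9, and of 18 core genes of the pathway 1 rose (5.56%, near the share of all genes), the kinase MAP3K8 (0.986 TPM in untreated cells and 3.61, 3.11 and 8.05 TPM in clones 7, 8 and 9).

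Genes of the AP-1 family and other immediate early genes rose: 13 of 20 tested in all 3 clones, with 1 lower. The shares were 65% and 5%, beside 6.97% and 5.68% of all genes, and the median log2 fold change was 2.06. EGR1, an immediate early zinc finger factor, was at 8.24, 8.7 and 8.61 TPM in the untreated libraries, against 266, 223 and 255 (clone 7), 326, 300 and 180 (clone 8) and 275, 247 and 280 (clone 9). All clone libraries were above the untreated ones (mean log2 change 4.77, SE 0.48, adjusted p 8.23e-08). JUN and JUNB, AP-1 subunits, rose by 4.42 and 3.90 (log2), and EGR2 by 3.66. FOSB, another AP-1 subunit, was at 13.8, 15.2 and 16.3 TPM in the untreated libraries, against 271, 205 and 235 (clone 7), 265, 243 and 150 (clone 8) and 205, 185 and 211 (clone 9). NR4A1, an immediate early nuclear receptor, was the member that fell (41.7 TPM in untreated cells and 15.7, 19.8 and 14.9 TPM in clones 7, 8 and 9). EGR3 was called lower in clones 8 and 9 only, so the 3 EGR genes of the list did not move together.

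Of 28 tested genes of TGF-beta and BMP signaling 15 rose and 1, the co-receptor TGFBR3, fell in all 3 clones. These were 53.6% and 3.57%, beside 6.97% and 5.68% of all genes. ID3, an inhibitor of DNA binding that BMP signals induce, was at 1.5, 1.37 and 1.01 TPM in the untreated libraries, against 144, 180 and 147 (clone 7), 134, 142 and 221 (clone 8) and 169, 212 and 167 (clone 9). INHBA, a subunit of activin, LTBP1, which holds latent TGF-beta in the matrix, and FST, which binds activin, rose by 5.95, 5.49 and 3.12 (log2). INHBA and FST belong to activin and LTBP1 to TGF-beta, and a joint action of them was not tested. Of 20 tested YAP and TEAD targets 10 rose and 0 fell in all 3 clones. CRIM1, ANKRD1 and F3, tissue factor, were among them, with log2 fold changes of 4.67, 4.14 and 4.15. F3 was unequal, with 186 TPM in clone 9 against 13.1 and 13.8 TPM in clones 7 and 8. Of 20 tested WNT pathway genes 6 rose and 1 fell in all 3 clones (30% and 5%, beside 6.97% and 5.68% of all genes). DKK1, a WNT antagonist, and WNT5A, a ligand, rose (log2 fold changes 6.01 and 5.44). The co-receptor LRP5 fell, with a log2 fold change of -2.64.

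Among the 42 pathway lists, the interferon-stimulated genes had the highest share of members higher in all 3 clones. Of 38 tested members 33 (86.8%) rose and 0 fell in all 3 clones, and the median log2 fold change of the mean was 2.53 (clone medians 2.18, 3.49 and 2.76). IFITM1, a membrane protein that blocks virus entry, was at 1.46, 0.86 and 1.17 TPM in the untreated libraries, against 52.6, 58.3 and 44.6 (clone 7), 339, 361 and 447 (clone 8) and 351, 410 and 351 (clone 9). Clone 7 rose less than clones 8 and 9 (mean log2 change 6.50, SE 0.16, adjusted p 7.47e-17; F test adjusted p 3.23e-09). BST2, tetherin, which holds budding virus at the membrane, was also lowest in clone 7, at 2.94, 2.01 and 2.36 TPM in the untreated libraries, against 31.6, 37 and 29.1 (clone 7), 211, 236 and 446 (clone 8) and 373, 493 and 368 (clone 9). IFI44L, a feedback regulator of the response, IFI27 and XAF1, a pro-apoptotic factor, rose by 6.01, 5.75 and 5.58 (log2). IFI27 differed from these, since it was lowest in clone 8 (1.52 TPM in untreated cells and 192, 69.2 and 196 TPM in clones 7, 8 and 9). Of 22 tested interferon signaling genes 8 rose and 1, the kinase JAK2, fell (36.4% and 4.55%, beside 6.97% and 5.68% of all genes). IRF7, IRF9 and IRF1, interferon regulatory factors, rose by 3.08, 2.72 and 3.02 (log2).

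The interferon-stimulated response element, searched on both strands as GAAA, any 2 bases and GAAA, stood in 18 of 26 matched promoters of the risen interferon genes (69.2%). The share was 7.74% over the 775 matched genes higher in all 3 clones, 2.41% over the 581 lower, 3.04% over genes tested and 3.65% over all promoters of the table. Windows of 100 bases from 4 of these promoters are shown because they hold the motif before the gene start, with its matches in capitals (TTTC, 2 bases and TTTC is the other strand). IFI27 lies at chr14:94110596-94110695 on the plus strand, BST2 at chr19:17405700-17405799 on the minus strand, IFI44L at chr1:78620330-78620429 on the plus strand and IFITM1 at chr11:313940-314039 on the plus strand.
IFI27: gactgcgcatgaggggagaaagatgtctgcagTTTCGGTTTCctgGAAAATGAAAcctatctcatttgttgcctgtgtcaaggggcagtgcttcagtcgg
BST2: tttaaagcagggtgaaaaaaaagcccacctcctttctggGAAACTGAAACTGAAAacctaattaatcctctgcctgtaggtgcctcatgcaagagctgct
IFI44L: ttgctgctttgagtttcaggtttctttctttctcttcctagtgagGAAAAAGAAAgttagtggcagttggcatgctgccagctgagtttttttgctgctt
IFITM1: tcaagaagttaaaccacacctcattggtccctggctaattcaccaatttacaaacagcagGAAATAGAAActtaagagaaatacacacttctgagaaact
The windows of IFI27 and BST2 hold 2 matches each, and those of IFI44L and IFITM1 1. The same search found the AP-1 motif TGANTCA in 8.52% of the matched genes higher in all 3 clones, 5.68% of those lower and 4.8% of genes tested, and the TEAD motif GGAATG in 14.6%, 11% and 11%.

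HLA class I genes and their peptide-loading partners rose in 13 of 20 tested members and fell in 0. HLA-B was at 33.2, 32.2 and 32.5 TPM in the untreated libraries, against 620, 668 and 528 (clone 7), 1054, 1165 and 1343 (clone 8) and 973, 1053 and 1001 (clone 9). All 9 clone libraries lay above the untreated ones (mean log2 change 4.74, SE 0.14, adjusted p 1.37e-15). HLA-F rose by 3.06 (log2), NLRC5, which activates class I transcription, by 2.99, and PSMB9, an immunoproteasome subunit, by 2.82. Of 10 class II genes 1 rose (10%, near the 6.97% of all genes). It was HLA-DMA, at 4.33 TPM in untreated cells and 25.2, 11.9 and 14.8 TPM in clones 7, 8 and 9. Reads of the HLA genes, of IFITM1 and of other near-identical copies can be divided between the copies by the estimation, so their single values are uncertain. Cytokines and chemokines rose in 13 of 25 tested members and fell in 1 (52% and 4%, beside 6.97% and 5.68% of all genes). CCL2, which attracts monocytes, was at 0.441, 0.467 and 0.394 TPM in the untreated libraries, against 264, 296 and 247 (clone 7), 203, 206 and 242 (clone 8) and 303, 314 and 308 (clone 9). IL6 was at 0.523 TPM in untreated cells and 63.4, 184 and 105 TPM in clones 7, 8 and 9, and CCL5, which attracts T cells, at 1.11 TPM in untreated cells and 43.8, 349 and 23.6 TPM in clones 7, 8 and 9. CCL5 was highest in clone 8 (F test adjusted p 4.58e-08). Of 18 tested complement genes 9 rose and 1 fell (50% and 5.56%, beside 6.97% and 5.68% of all genes). C1R and C1S, the proteases of the first complex, rose by 7.14 and 5.39 (log2). CD55, a complement inhibitor on the cell surface, was the member that fell, with a log2 fold change of -2.57.

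**Figure D3:**
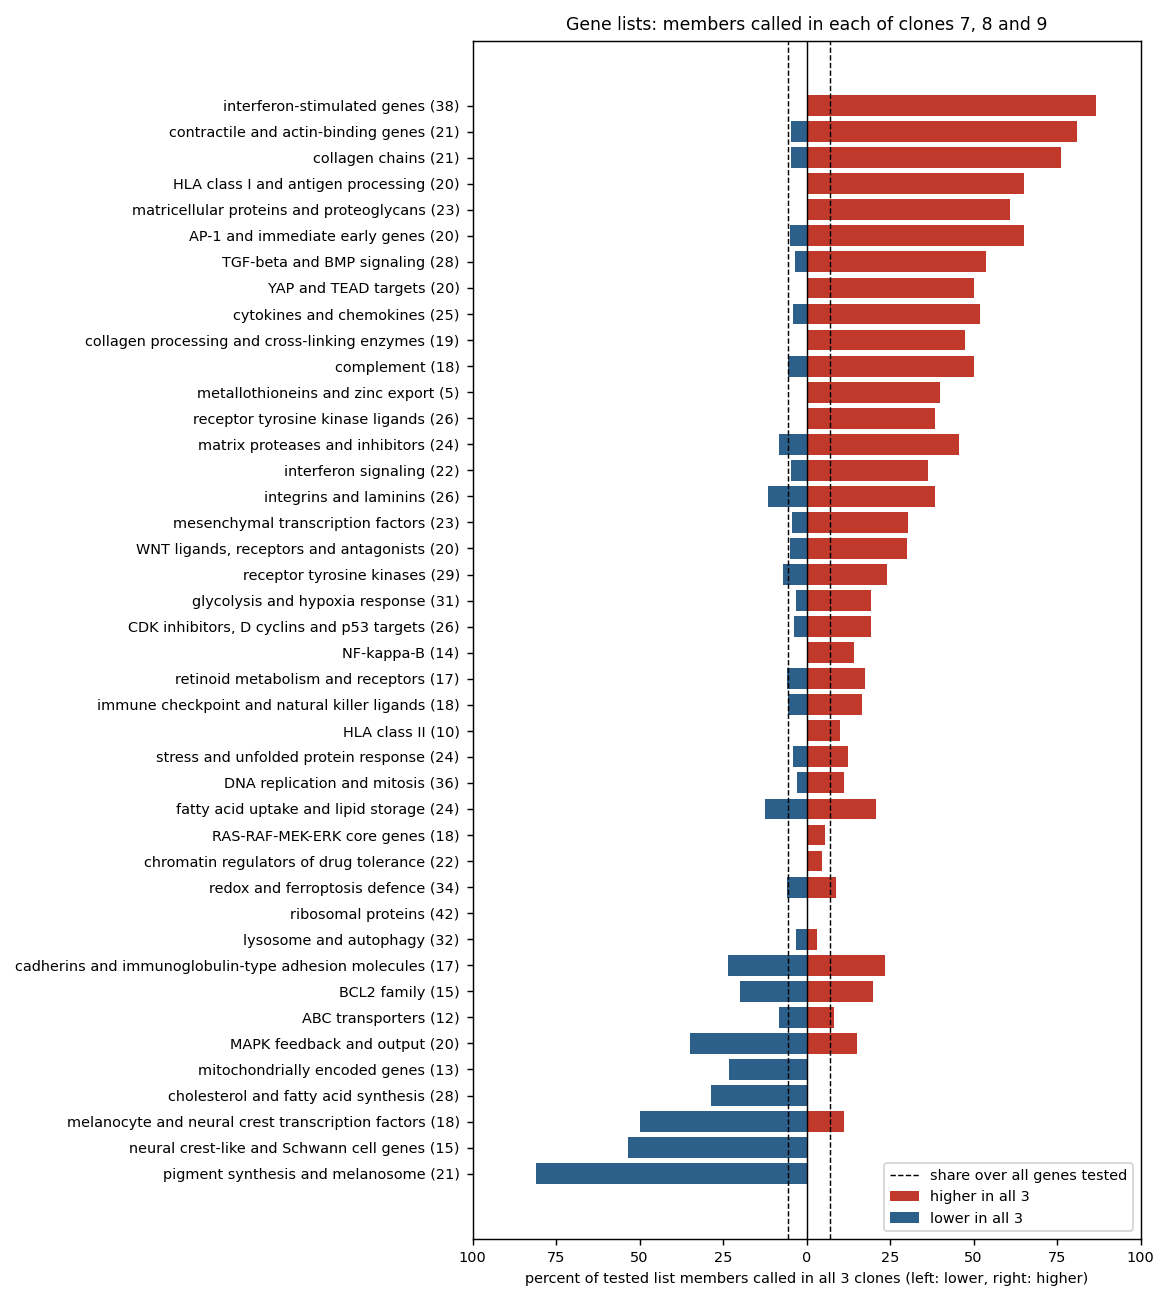
Percent of tested members of each of 42 gene lists (number in brackets) called higher (right, red) or lower (left, blue) in each of clones 7, 8 and 9. Dashed lines mark the share over all genes tested, 6.97% and 5.68%; interferon-stimulated, contractile and collagen genes reach furthest right and pigment genes furthest left.

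Sterol synthesis genes fell in part. Of 28 tested genes of cholesterol and fatty acid synthesis 8 fell and 0 rose in all 3 clones (28.6%), the mean was called lower for 14 and higher for 1, and the median log2 fold change was -1.05 (clone medians -0.98, -1.50 and -0.83). HMGCS1, which makes the precursor of mevalonate, was at 73.8, 80.7 and 81.6 TPM in the untreated libraries, against 27, 25.1 and 30.9 (clone 7), 19.2, 19.8 and 15 (clone 8) and 23.9, 21.5 and 25.2 (clone 9). CYP51A1, the lanosterol demethylase, was at 107, 114 and 117 TPM in the untreated libraries, against 31.1, 28.7 and 39.1 (clone 7), 33, 29.5 and 23.5 (clone 8) and 54.2, 45.8 and 50 (clone 9). FDFT1, squalene synthase, was at 420, 404 and 403 TPM in the untreated libraries, against 119, 130 and 112 (clone 7), 70.4, 72.5 and 70.4 (clone 8) and 72.3, 76.6 and 75.3 (clone 9). For each of these genes all clone libraries lay below the untreated ones, with log2 fold changes of the mean of -1.75 (HMGCS1), -1.62 (CYP51A1) and -2.23 (FDFT1). HSD17B7 and TM7SF2, later enzymes of the path, fell, with log2 fold changes of -2.60 and -1.99. DHCR7, the last enzyme, and FASN, fatty acid synthase, were called lower in clones 7 and 8 and not in clone 9. In the reference clones the medians of this list were -0.19, -0.92, -0.13 and -0.43, and 3 of the 8 genes were called lower in all 4 of them. CYP51A1 was called in none of these, at 91.2, 70, 89.1 and 64.3 TPM in clones 10 to 13.

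Lipid uptake and storage genes changed in both directions. Of 24 tested members 5 rose and 3 fell in all 3 clones (20.8% and 12.5%, beside 6.97% and 5.68% of all genes). CD36, a fatty acid importer, was at 0.563, 0.445 and 0.277 TPM in the untreated libraries, against 215, 206 and 223 (clone 7), 37.9, 42.8 and 26.3 (clone 8) and 7.13, 5.01 and 7.38 (clone 9). Clone 7 was highest and clone 9 lowest, with a range of 4.86 on the log2 scale (F test adjusted p 6.26e-05), and all clone libraries still lay above the untreated ones. PLIN2, the coat protein of lipid droplets, rose in the same order of clones (35.8 TPM in untreated cells and 257, 149 and 98 TPM in clones 7, 8 and 9). FABP7, a fatty acid carrier of neural crest cells, and SLC27A3, a fatty acid transporter, fell, with log2 fold changes of -4.88 and -2.87.

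Metallothioneins are small proteins that bind zinc and copper, and MT2A and MT1X were the members that rose in all 3 clones. MT2A was at 380, 299 and 294 TPM in the untreated libraries, against 1147, 1428 and 1296 (clone 7), 932, 973 and 2067 (clone 8) and 1204, 1969 and 1282 (clone 9). MT1X was at 58.4, 45 and 50 TPM in the untreated libraries, against 270, 387 and 316 (clone 7), 213, 237 and 463 (clone 8) and 317, 467 and 346 (clone 9). They reached like levels in each clone (mean log2 change 2.03, SE 0.22, adjusted p 1.73e-07 for MT2A; mean log2 change 2.65, SE 0.24, adjusted p 2.13e-08 for MT1X). These were 2 of 5 tested members of the list; MT1F was called higher in clone 8 alone, and its direction turned when clone 8 was left out of the mean. In the reference clones MT2A was at 507, 591, 634 and 652 TPM in clones 10 to 13 and called in none, and MT1X at 121, 113, 109 and 136 TPM in clones 10 to 13 and called in all 4.

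**Figure D4:**
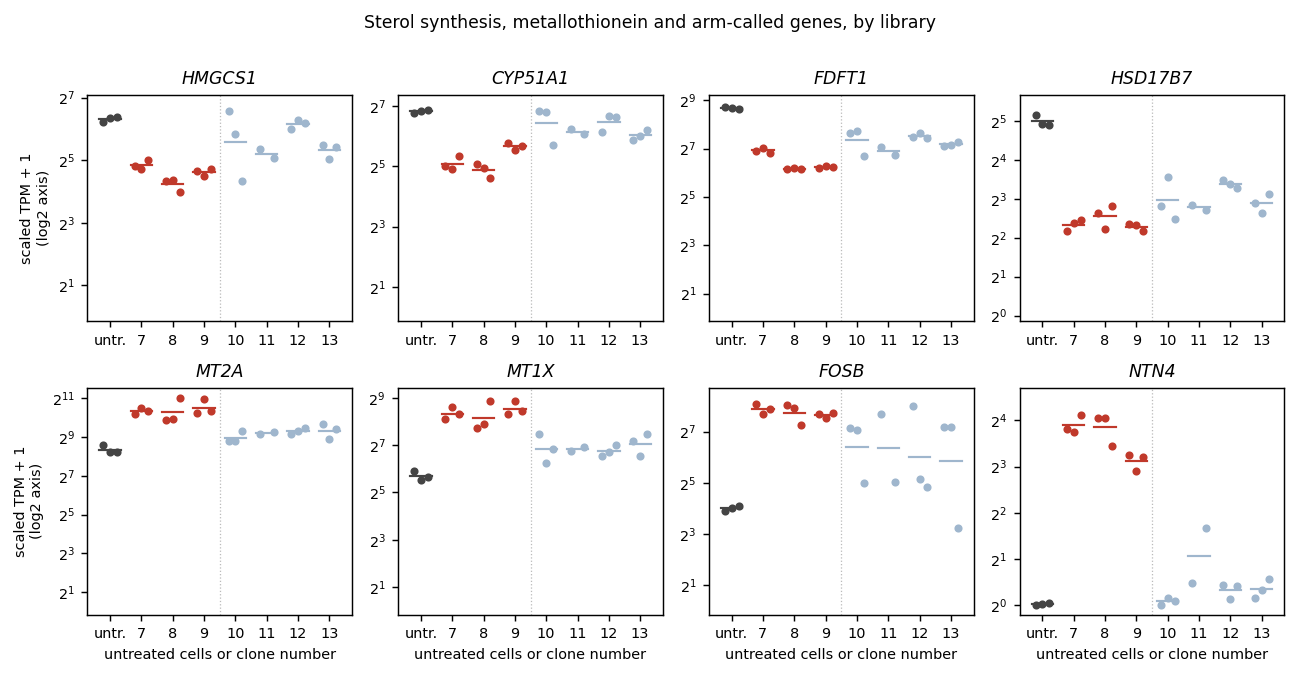
Scaled TPM + 1 (log2 axis) of 4 sterol synthesis genes, 2 metallothioneins, FOSB and NTN4 in every library of untreated cells (grey), clones 7, 8 and 9 (red) and clones 10 to 13 (blue, for reference). Points are libraries and lines the mean of log values; MT2A and NTN4 are higher in the red groups than in the blue ones.

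Other metabolic and stress genes gave shorter lists. Of 31 tested glycolysis and hypoxia genes 6 rose and 1 fell in all 3 clones (19.4% and 3.23%, beside 6.97% and 5.68% of all genes). ADM, adrenomedullin, rose by 3.78 and LDHA, lactate dehydrogenase, by 1.38 (log2). Of 34 redox genes, 15 were called higher and 3 lower in 1 or 2 clones only, with a list median of 0.69 (log2) for the mean. In all 3 clones 3 rose and 2 fell (8.82% and 5.88%, near the shares of all genes). PRDX1, a peroxiredoxin, was one that fell, at 1929, 1790 and 1694 TPM in the untreated libraries, against 423, 596 and 470 (clone 7), 473, 512 and 803 (clone 8) and 560, 673 and 566 (clone 9). Its clone libraries did not overlap the untreated ones (mean log2 change -1.70, SE 0.17, adjusted p 8.28e-08). TXNRD1, thioredoxin reductase, rose by 2.24 (log2). Of 13 mitochondrially encoded genes 3 fell in all 3 clones (23.1%), MT-CYB, MT-ND4 and MT-ND4L. A further 9 were called lower in 1 or 2 clones only, and the mean was called lower for 7. The list median was -1.02 (log2) for the mean, close to the fold minimum of the calls. The mitochondrial share given above was lower too, and its part in other results was not tested. None of 42 ribosomal protein genes was called in all 3 clones. HDAC7, a histone deacetylase, was the 1 of 22 chromatin regulators that rose (4.55%, under the 6.97% of all genes), at 3.06 TPM in untreated cells and 28.2, 31.9 and 34.6 TPM in clones 7, 8 and 9.

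Of 36 tested replication and mitosis genes 4 rose and 1 fell in all 3 clones (11.1% and 2.78%, beside 6.97% and 5.68% of all genes). A further 11 were called higher and 0 lower in 1 or 2 clones only. The median log2 fold change of the mean was 0.66 for the list, against -0.001 over all genes tested. TK1, thymidine kinase, was at 28.2, 26.2 and 25.3 TPM in the untreated libraries, against 120, 142 and 113 (clone 7), 137, 150 and 201 (clone 8) and 99.4, 113 and 98.1 (clone 9). RRM2, KIF20A and CCNA2 also rose (log2 fold changes 1.76, 1.76 and 1.22). MKI67, the proliferation marker, did not reach the fold minimum, at 14 TPM in untreated cells and 21.3, 26.2 and 27.5 TPM in clones 7, 8 and 9 (mean log2 change 0.78, SE 0.21, adjusted p 0.00445). CDK2, a cell cycle kinase, was the member that fell, from 871 TPM to 43.4, 43.9 and 37.6 TPM in clones 7, 8 and 9. CDK2 is the neighbour of PMEL in the RefSeq annotation of GRCh38, and reads of overlapping or joined transcripts of neighbours cannot be told apart here, so its value is uncertain. Of 26 tested cell cycle inhibitors and p53 targets 5 rose, among them CDKN1A, the p21 inhibitor (1.14 TPM in untreated cells and 18.6, 21.9 and 8.82 TPM in clones 7, 8 and 9), and 1 fell, BBC3. In the BCL2 family 3 of 15 rose (BOK, BAD and MCL1) and 3 fell (20% each, beside 6.97% and 5.68% of all genes). Among the fallen were BCL2A1, a survival factor of melanocytes (log2 fold change -2.95), and BCL2 (-1.39).

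The size of a change often differed among the 3 clones. An F test among clones 7, 8 and 9, which also asked for clone means 1 log2 unit or more apart, was passed by 1357 of 15657 genes (8.67%). Among the shared rises 321 of 1091 passed it (29.4%), and among the shared falls 89 of 890 (10%). Genes that fell to near 0 TPM in every clone have little room for such a range on log2 of scaled TPM + 1. The 2 shares therefore do not show that rises varied more than falls. ACTG2, an actin of visceral smooth muscle, had the largest range among the shared changes with a mean of at least 4 TPM in the higher group. It was at 3.03, 3.75 and 3.04 TPM in the untreated libraries, against 194, 199 and 176 (clone 7), 1100, 1121 and 1349 (clone 8) and 16.4, 17.3 and 16.2 (clone 9). Clone 8 was highest and clone 9 lowest, 6.07 apart on the log2 scale (F test adjusted p 3.23e-09). MYOCD, the coactivator of smooth muscle genes, had the same order (0.098 TPM in untreated cells and 11.7, 53.5 and 1.71 TPM in clones 7, 8 and 9). In the other direction, SFRP4, a WNT antagonist, was at 0.643, 0.35 and 0.211 TPM in the untreated libraries, against 16.6, 19.2 and 15.6 (clone 7), 5.8, 6.32 and 5.41 (clone 8) and 223, 212 and 230 (clone 9). It was highest in clone 9, as were MFAP4, a microfibril protein, PITX1, a homeobox factor, COL3A1, a fibrillar collagen, COL6A3 and IGFBP5. COL3A1 was at 0.204 TPM in untreated cells and 102, 10.3 and 348 TPM in clones 7, 8 and 9, and IGFBP5 at 5.81 TPM in untreated cells and 112, 38.4 and 777 TPM in clones 7, 8 and 9. PLN, phospholamban, was highest in clone 7, at 0.0736 TPM in untreated cells and 146, 4.01 and 14.2 TPM in clones 7, 8 and 9.

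Of 4433 genes called in at least 1 of the 3 clones, 17 were called higher in one and lower in another. ALDH1A1, a retinal dehydrogenase, was at 3.24, 3.68 and 3.21 TPM in the untreated libraries, against 0.807, 0.627 and 0.572 (clone 7), 0.286, 0.237 and 0.222 (clone 8) and 26, 21.4 and 26.4 (clone 9). TSPAN33, a tetraspanin, was at 34.4, 31.1 and 31.1 TPM in the untreated libraries, against 3.52, 4.42 and 3.84 (clone 7), 7.24, 6.47 and 9.97 (clone 8) and 85.7, 103 and 82.1 (clone 9). Both were called lower in clones 7 and 8 and higher in clone 9, as was ADAMTS9, a matrix protease (13.1 TPM in untreated cells and 2.99, 3.5 and 40.8 TPM in clones 7, 8 and 9). NSG1, a neuronal endosome protein, and PDGFD, a growth factor, were called lower in clone 8 and higher in clone 9. CSAG1, a cancer-testis antigen, was at 10.7, 8.88 and 9.23 TPM in the untreated libraries, against 41.6, 45.6 and 38.3 (clone 7), 13.1, 13 and 23.4 (clone 8) and 2.34, 2.11 and 2.77 (clone 9), higher in clone 7 and lower in clone 9. HBE1, an embryonic globin, was called higher in clone 7 and lower in the others, and HTATIP2 lower in clone 8 and higher in the others.

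**Figure D5:**
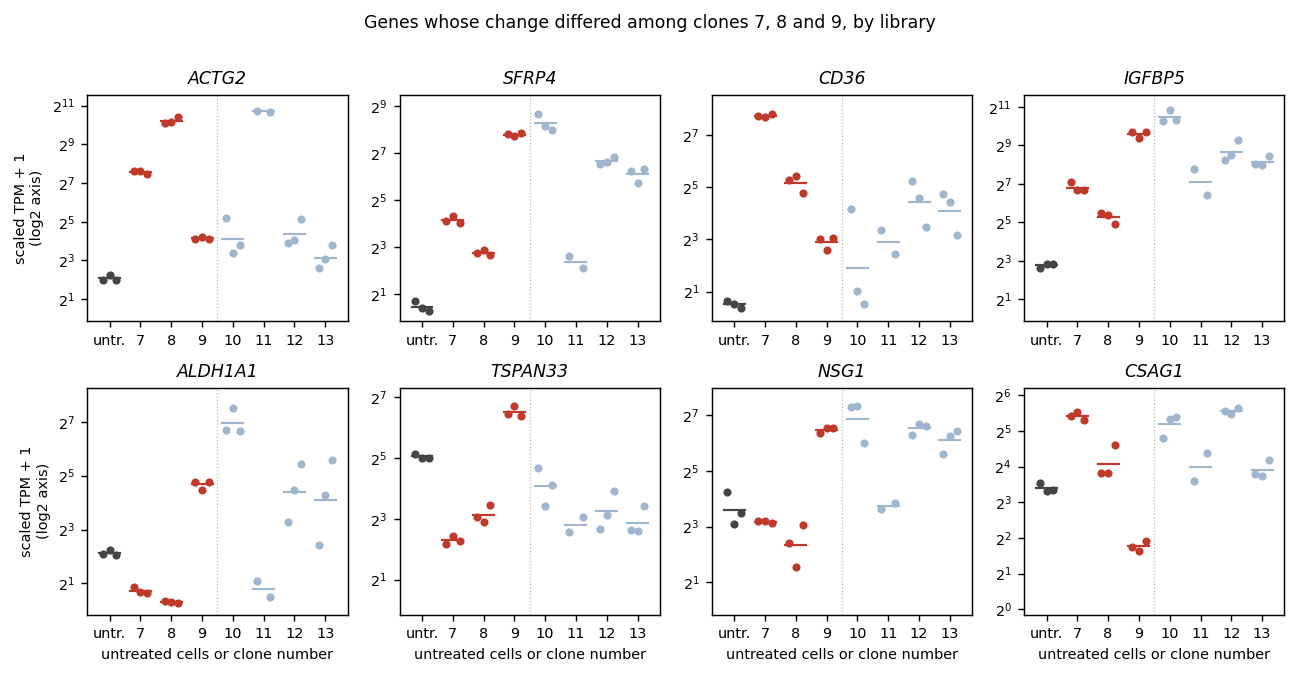
Scaled TPM + 1 (log2 axis) of 8 genes whose change differed among clones 7, 8 and 9 (red), with untreated cells (grey) and clones 10 to 13 (blue, for reference). Points are libraries and lines the mean of log values; ACTG2 is highest in clone 8, CD36 in clone 7 and SFRP4 in clone 9 of the 3.

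Most shared changes were also present in the reference clones, which were compared with the same untreated libraries. Of the 1091 rises 763 (69.9%) were called in all 4 of clones 10 to 13, 303 in 1 to 3 of them and 25 in none, and 1 was called the opposite way in some. Of the 890 falls 657 (73.8%) were called in all 4, 214 in 1 to 3 and 19 in none. A comparison of the 3 vemurafenib with the 4 dabrafenib/trametinib clones, with the clone as the unit, called 3 genes (0.0192%), all higher in the vemurafenib clones: FOSB, MT1X and NTN4, a secreted netrin. NTN4, chosen after its values were seen, was at 0.0053, 0.00951 and 0.0242 TPM in the untreated libraries, against 13.1, 12.5 and 16.4 (clone 7), 15.5, 15.6 and 9.84 (clone 8) and 8.51, 6.53 and 8.2 (clone 9), and at 0.0598, 1.28, 0.261 and 0.272 TPM in clones 10 to 13 (difference between arms 3.17, SE 0.29, limma adjusted p 0.037). The adjusted p was 0.037 for MT1X and 0.0495 for FOSB. FOSB was spread widely within the reference clones, from 8.28 TPM to 252 TPM over their 11 libraries, so libraries of both arms overlapped. With TPM as deposited, or with a pseudocount of 0.1, no gene was called. None of the 44 genes called in clones 7, 8 and 9 and in none of clones 10 to 13 passed this comparison, so no difference between the arms was shown for them. The lowest adjusted p among them were those of MN1 (0.0519), BMP4 (0.0629) and MT2A (0.0731), of which MN1 and BMP4 were chosen after their values were seen.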

How the data were processed

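Poly(A) RNA of WM989 A6-G3 cells and 7 resistant clones was sequenced with paired ends, after samples were put in random order, per the labels' protocols. The deposited table gave TPM per gene for 35438 genes and 23 libraries; each column summed to 1000000, although the table is named as counts. Per the submitters' processing notes the authors used kallisto and hg19; software versions and the way transcripts were joined to genes were not given in the sources used here. Depth is unknown for TPM, so no counting interval was given. Each group mean rests on 3 libraries (2 for clone 11), and the spread was shared by all groups.

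TPM was divided by a trimmed mean of log ratios over 10822 genes with at least 1 TPM in every library, computed here (trims of 30% for log ratios and 5% for mean levels; factors 0.747 to 1.05 in the 12 libraries). Genes with at least 1 TPM in at least 2 libraries (15657) were tested on log2(scaled TPM + 1) with limma 3.58.1 in R 4.3.3 (lmFit, eBayes with a trend, 15 residual degrees of freedom, all 23 libraries in 8 groups). Tests were two-sided. Calls needed p under 0.05 after Benjamini-Hochberg adjustment over the 15657 genes, and a change of 1 log2 unit or more. The drug arms were compared on clone means, 3 against 4. The fit recovered known changes in data simulated from these libraries. The simulation used independent noise, the same shift in all 3 clones and changed genes well above 0 in untreated cells. It therefore does not cover genes near 0, changes unequal among clones or libraries that deviate together. The labels call replicates biological without saying what separated them, so p-values may measure technical spread.

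The comparison, the gene lists and the named genes were chosen with earlier results of these data known. The text names a panel (BRAF, MKI67, CCND1, SPRY4, DUSP6, NGFR, EGFR, AXL, MLANA, PMEL, SOX10, MITF); the 15 rises and 15 falls largest in the least changed clone, if the higher group averaged 4 TPM or more; per list up to 5 members called in all 3 clones, 2 in the other direction and 3 called in 1 or 2 clones; up to 12 shared changes called between the drug arms, called in no reference clone and with arms apart (0 were found); up to 8 genes called in opposite directions; and up to 10 shared changes by F test range. PAX3, TYRP1, TRPM1, NTN4, MN1, BMP4 and markers outside the rule were chosen after their values were seen. Some genes that these rules name are not reported here. Promoters came from the RefSeq table (GRCh38.p14), matched by symbol for 10214 of 15657 genes tested. Alternatives changed the scaling, pseudocount, filter, libraries, test and unit, and left out each replicate and clone.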

Additional observations from a re-analysis of the deposited data

Results flagged for a closer look

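The change against untreated cells differed among clones 7, 8 and 9 by the limma F test (Benjamini-Hochberg adjusted) for 18 genes singled out by size. Among genes called in opposite directions, the range of the 3 clones on the log2 scale was 4.35 for ALDH1A1, 4.21 for TSPAN33, 4.13 for NSG1, 3.65 for CSAG1, 3.62 for PDGFD, 3.60 for HBE1, 3.39 for ADAMTS9 and 3.27 for HTATIP2. Among genes called the same way in all 3 clones, it was 6.07 for ACTG2, 5.03 for SFRP4, 4.95 for COL3A1, 4.94 for MFAP4, 4.88 for PITX1, 4.87 for PLN, 4.86 for CD36, 4.66 for COL6A3, 4.31 for IGFBP5 and 4.29 for MYOCD. The highest adjusted p of these 18 was that of CD36, 6.26e-05. No group of 4 to 10 libraries existed, so single libraries were not tested as outliers.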

How the results depend on the processing

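The shared changes numbered 1091 higher and 890 lower; under other scaling, pseudocount, filters, the 12 libraries alone and the replicate block the counts stayed within 1.5 times of these. A test against a log2 fold of 1 (treat) gave 597 and 456 shared changes, 988 and 674 for the mean, and, for clones 7, 8 and 9, 920, 920 and 1016 higher and 591, 682 and 628 lower, since it asks for a fold beyond the minimum with its error. With the clone as the unit, which leaves fewer samples, the mean was called higher for 796 and lower for 810 genes. The 3 genes called between the drug arms became 0 with TPM as deposited and 0 with a pseudocount of 0.1; the cause was not tested. Leaving out 1 replicate at a time gave 1068 to 1099 shared rises, 856 to 908 shared falls, 1634 to 1689 and 1247 to 1326 for the mean, for clone 7 1709 to 1776 and 1281 to 1402, for clone 8 1647 to 1866 and 1381 to 1603, for clone 9 1767 to 1815 and 1237 to 1322, and 4 between the arms without clone 10 replicate 1.

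Replicate numbers did not pair the libraries. Over 18 same-numbered pairs the median correlation of deviations was -0.168 (from -0.622 to 0.371), with 7 pairs over 0.1. Over 36 differently numbered pairs it was 0.155 (from -0.574 to 0.715), with 20 pairs over 0.1. Some libraries of different groups thus deviated together, and the source was neither tested nor modelled. The replicate block gave 1092 shared rises, 890 shared falls and 1663 and 1290 for the mean.

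Of 341 named genes, 331 kept their side of the threshold for the mean with TPM as deposited, 325 with a pseudocount of 0.1 and 220 with the clone as the unit. Directions turned for genes near 0 or opposed among clones. Without clone 7 the mean fold change was -0.10 for NGFR, 0.37 for ALDH1A1 and -0.48 for CSAG1. Without clone 8 it was -0.06 for NGFR, -0.23 for MT1F, -0.18 for PTPRC and 0.58 for ALDH1A1. Without clone 9 it was -0.00 for PALLD, -0.06 for PDPN, -0.84 for NSG1 and -1.02 for PDGFD, and PDGFD was at -0.33 with a pseudocount of 0.1. TPM keeps no depth, so values near 0 cannot be given a detection limit.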
